A study of Mus musculus with 6 samples.

Results

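Scg2, Scg5, Chgb and Pcsk2 encode 4 proteins of the dense-core vesicles from which neurons release peptides. Their rows were taken from the deposited table by gene symbol, and all 4 were found among its 5538 genes, each as 1 row. They were described in RNA recovered with eGFP-tagged ribosomes (IP, 3 libraries) and in libraries labelled Input (3 libraries), read here as RNA of the same tissue before the recovery step.

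The tissue was the perioculomotor (pIII) region of the brain of C57BL/6 mice, the midbrain around the oculomotor nucleus. All 6 libraries carry the same genotype and treatment in the labels: CreER, a drug-inducible recombinase, under the promoter of the activity-regulated gene Fos, together with a Cre-dependent eGFP-L10a reporter, a ribosomal protein fused to eGFP. The mice had 6 hr of sleep deprivation and 3 hr of recovery sleep, and 4-OHT, the drug that activates CreER, was injected just ahead of one of these phases. The series text names the neurons labelled in recovery sleep (RS-eGFP), while the labels of single libraries do not give the phase, and no age is given. Each library pooled 4 to 5 mice, so a replicate is a pool, and any cell type in which the Fos promoter was active while the drug was present could carry the tag.

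As background, peptide precursors are packed in the trans-Golgi network into dense-core vesicles together with granins, acidic proteins that aggregate there and help the vesicles form. Prohormone convertases cut the precursors after pairs of basic residues inside the vesicle, carboxypeptidase E trims the ends, and calcium then drives release. Scg2 encodes secretogranin II, the precursor of the peptide secretoneurin, and Chgb encodes chromogranin B, both granins of the vesicle core. Pcsk2 encodes the convertase PC2, and Scg5 encodes 7B2, a chaperone that PC2 needs to become active and that keeps it inhibited until then. Neurons of the Edinger-Westphal nucleus in this part of the midbrain are known for such peptides, among them urocortin and CART.

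The 4 genes lie in these places on GRCm38, the assembly behind the mm10 build named by the submitters, in GENCODE M21. Scg2 spans chromosome 1, 79434669 to 79440120, on the minus strand, with 2 exons in its first listed transcript. The other 3 are all on chromosome 2. Scg5 spans 113776362 to 113829121 on the minus strand with 6 exons, Chgb 132781278 to 132795079 on the plus strand with 5 exons, and Pcsk2 143546156 to 143816285 on the plus strand with 12 exons. Pcsk2 is thus by far the longest gene of the set, with a span of 270130 bases against 5452 for Scg2.

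The promoters of Scg2 and Chgb both hold the cAMP response element, the palindrome TGACGTCA that CREB family factors bind. RefSeq promoter windows (GRCm38.p6), from 250 bases before to 50 after the annotated start, were matched for all 4 genes by symbol and searched on both strands for TGACGTCA and for its shorter form TGACG, which every TGACGTCA also contains. The sites are shown as 30 bases each on the gene's own strand, 5′ to 3′, with the match in capitals, because they set the 2 granins apart from Scg5 and Pcsk2 in sequence.
Scg2: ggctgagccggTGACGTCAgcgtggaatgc
Chgb: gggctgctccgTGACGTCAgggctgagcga
Scg5: taaaggaggtaaaTGACGttcataggggtc
Scg5: tttcggagggaggTGACGcaggagctatcc
Scg5: gacgcaggagctatccagcaCGTCAgctcc
Pcsk2: gctggcgggcgcgCGTCAcccgggctggcg
The Scg2 stretch lies at chr1:79440076-79440105 (minus strand) and its match begins at -68 from the start. The Chgb stretch lies at chr2:132781559-132781588 (plus strand) and its match begins at -72. The Scg5 stretches, on the minus strand, are chr2:113829250-113829279 with a match from -175, chr2:113829056-113829085 with a match from 20, and chr2:113829042-113829071 with a match from 41. The Pcsk2 stretch is chr2:143546086-143546115 (plus strand) with a match from -34.

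TGACGTCA was present in 1.79% of all 32851 promoter windows of this length, and in those of 4.55% of the 4288 listed genes that had a window. TGACG on either strand was present in 20.8% of all windows and for 41% of the listed genes, so a match to it is common. Of the granin family members outside the set of 4, Pcsk1n had neither match in its window and Vgf had no window. In Chga and Scg3 TGACG alone was present.
Chga: gggggcggtcctaTGACGtaatttcctggg
Scg3: agcgctgggtcgcTGACGccatcctcacgc
These stretches lie at chr12:102554884-102554913 (plus strand) and chr9:75684070-75684099 (minus strand). In GENCODE M21 the Scg2 and Chgb stretches fall in the first exon of a transcript that starts farther upstream, so the distances hold for the RefSeq starts. A match describes letters in a window only, and no binding was measured in these libraries.

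The table gives TPM, transcript abundance on a fixed total per library, which corrects for transcript length but keeps no read depth, so the reads behind each value are unknown. No value is below 7 TPM, and genes that fell under that level in any library are not analysed here. The libraries differed as wholes. The median gene stood between 27.7 TPM (IP 1) and 67.2 TPM (Input 2), and Input 3 (31.1 TPM) was near IP 1, not near Inputs 1 and 2. The log2 values of all genes gave a correlation of 0.973 between Inputs 1 and 2, whereas Input 3 correlated with them at 0.722 and 0.736 and with IP 3 at 0.851, as a description across genes, which are not independent replicates. Results are therefore given on all 6 libraries and also without IP 1 and Input 3. Rpl10a, the gene of the tagged protein, had 365 to 559 TPM in IP against 36.2 to 117 TPM in Input, with no overlap, although reads of a near-identical pseudogene may be divided with it. Markers of the labelled region were present but differed in their ratio of mean TPM, which is not scaled between libraries. Ucn (urocortin) had 204 to 232 TPM in IP against 86.2 to 619 TPM in Input, a ratio of means of 0.578. Cartpt (CART) had 809 to 1003 TPM against 415 to 2769 TPM, a ratio of 0.508, and both overlapped between groups. Relative to the median gene of each library, the log2 differences of Ucn and Cartpt were only -0.13 and -0.34. Neither passed in limma (adjusted p = 0.934 and 0.848). Chat, the enzyme of acetylcholine synthesis, had 42.45 to 114 TPM in IP against 34.7 to 40.1 TPM in Input, a ratio of 2.12 without overlap. Relative to the median gene, 6.93% of all genes were higher in IP without overlap. Slc18a3, the vesicle transporter of acetylcholine, had 132 to 215 TPM in IP against 43.1 to 176 TPM in Input and overlapped.

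Scg2 was the most abundant of the 4 genes in every library and Pcsk2 the least abundant. Scg2 transcripts had 70.0, 347 and 266 TPM in IP libraries 1 to 3, against 876, 756 and 114 TPM in Inputs 1, 2 and 3. Inputs 1 and 2 were thus higher than every IP library, but Input 3 was lower than IP 2 and IP 3, so the groups overlapped. The means were 228 ± 142 TPM in IP against 582 ± 410 TPM in Input (n = 3 each, SD), a ratio of 0.391. This put Scg2 at place 5473 of 5538 genes ordered from the highest to the lowest ratio. Such places, here and for the other genes below, rest on TPM not scaled between libraries. Inputs 1 and 2 had the highest median gene.

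Chgb had 59.9, 212 and 133 TPM in IP libraries 1 to 3, against 309, 275 and 73.5 TPM in Inputs 1, 2 and 3. As with Scg2, IP 1 was the lowest library and Input 3 the next. The means were 135 ± 76.2 and 219 ± 127 TPM (SD, n = 3 each), a ratio of 0.617 at place 4717.

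Scg5 had 51.1, 148 and 132 TPM in IP libraries 1 to 3, against 290, 312 and 60.7 TPM in Inputs 1, 2 and 3. Its groups overlapped through Input 3 alone. The means were 110 ± 51.9 and 221 ± 139 TPM (SD, n = 3 each), a ratio of 0.499 at place 5292.

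Pcsk2 had 9.55, 34.6 and 19.9 TPM in IP libraries 1 to 3, against 28.2, 35.7 and 17.4 TPM in Inputs 1, 2 and 3. Its values interleaved, with IP 2 at nearly the level of Input 2 and IP 3 above Input 3. The means were 21.4 ± 12.6 and 27.1 ± 9.17 TPM (SD, n = 3 each), a ratio of 0.789 at place 3140. The value in IP 1 is close to the lowest value the table lists. Together the 4 genes summed to 191 to 742 TPM in the IP libraries and to 265, 1503 and 1379 TPM in Inputs 3, 1 and 2.

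**Figure D1:**
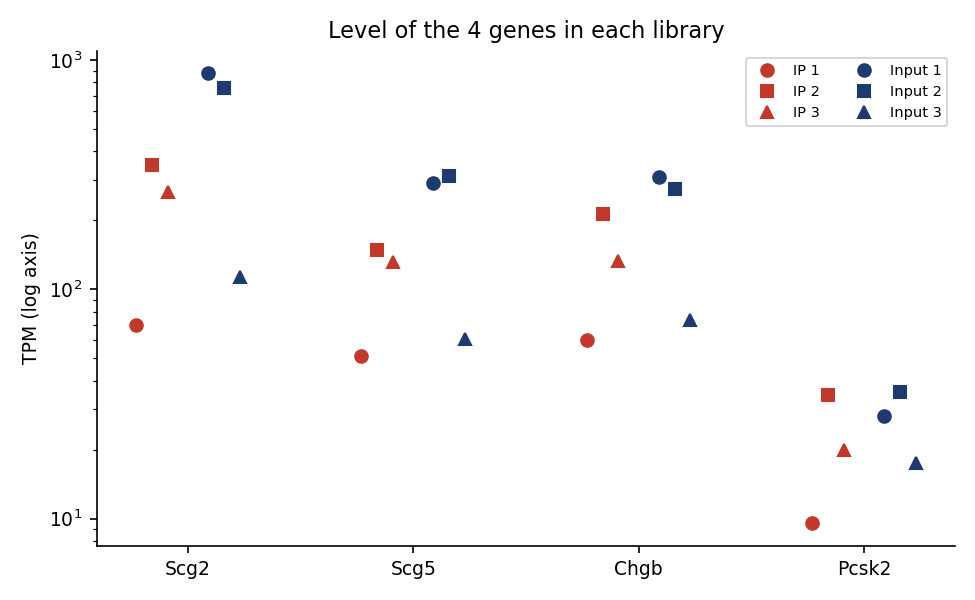
TPM (log axis) of Scg2, Scg5, Chgb and Pcsk2 in each library, with red for IP, dark blue for Input, and a circle, square or triangle for library 1, 2 or 3. For the 3 genes other than Pcsk2, Inputs 1 and 2 lie above all IP points, and IP 1 and Input 3 lie lowest.

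The position of each gene within its own library does not depend on how libraries are scaled. Scg2 stood at the 97.3 and 96.9 percentile of the listed genes in Inputs 1 and 2, at 94.1 and 91.0 in IP 2 and IP 3, at 86.8 in Input 3 and at 75.2 in IP 1. By rank it was gene 148 of 5538 in Input 1 and gene 1373 in IP 1. Scg5 ranged from the 68.6 percentile (IP 1) to 89.7 (Input 2), and Chgb from 72.3 (IP 1) to 89.3 (Input 1), with IP 2 and Input 2 at the same rank of 652. Pcsk2 stayed low, from the 9.88 percentile in IP 1 to 28.6 in IP 2, and Input 3 (26.4) was its highest Input library. Scg2, Scg5 and Chgb were thus among the more abundant listed transcripts of each library, and Pcsk2 among the less abundant.

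Relative to the median gene of the same library, on the log2(TPM + 1) scale, Scg2 stood at 1.31, 2.60 and 2.36 in IP 1 to 3 and at 3.75, 3.47 and 1.84 in Inputs 1, 2 and 3. In linear terms this was 2.53 to 6.14 times the median TPM in IP, and 13.6, 11.3 and 3.66 times in the Inputs. The difference of IP from Input was -0.93 (SE 0.58) with an adjusted p of 0.709 in limma, so it did not pass. An exact two-sided permutation test of these values gave p = 0.3, where the smallest p that 3 against 3 libraries allow is 0.1. Without IP 1 the difference was -0.54, and without Input 1 it was -0.57. Without Input 3 it was -1.52. In tissue RNA a lower level can come from fewer cells of a type or from less RNA per cell, and the 2 cannot be told apart here.

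Scg5 stood at 0.86, 1.37 and 1.35 in the IP libraries and at 2.15, 2.20 and 0.94 in the Inputs, on the same scale. Its difference was -0.57 (SE 0.40, adjusted p = 0.731 in limma; exact permutation p = 0.3). Chgb stood at 1.09, 1.89 and 1.37 in IP and 2.25, 2.02 and 1.22 in Input, a difference of -0.38 (SE 0.36, adjusted p = 0.78 in limma; exact permutation p = 0.4). Pcsk2 was below the median gene in every library, at -1.44, -0.69 and -1.31 in IP and -1.16, -0.89 and -0.80 in Input, or 0.345 to 0.613 times the median TPM. Its difference was -0.20 (SE 0.28, adjusted p = 0.84 in limma; exact permutation p = 0.5). All 4 differences were below 0, and none exceeded the spread between libraries by these tests.

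Over all genes the same fit called 0 of 5538 higher (0%) and 0 lower (0%) at an adjusted p of 0.05, with a smallest adjusted p of 0.649. At an unadjusted p of 0.05 it had 198 genes higher (3.58%) and 213 lower (3.85%), and 0 of the 4 genes were among them. IP and Input values did not overlap for 384 genes higher in IP (6.93%) and for 538 lower in IP (9.71%). None of the 4 was among these either. Input 3 fell within the IP range of Scg2, Scg5 and Chgb, and all 3 Inputs fell within that of Pcsk2.

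IP 1 and Input 3 set most of the spread of the 3 genes other than Pcsk2. Without these libraries, limma put Scg2 at -1.13 (SE 0.19, adjusted p = 0.013) and Scg5 at -0.81 (SE 0.18, adjusted p = 0.0332), both lower in IP. Chgb did not pass, at -0.50 (SE 0.22, adjusted p = 0.216), and Pcsk2 stood at 0.03 (SE 0.26, adjusted p = 0.963). In that comparison of 2 IP with 2 Input libraries 2.89% of all genes were called lower and 3.38% higher. Leaving out the 2 libraries was a choice made with their values known, so these calls describe the 4 libraries that resemble each other within groups. Without Input 3 alone, Scg2 (adjusted p = 0.221) and Scg5 (adjusted p = 0.207) did not pass, while 0.0181% of genes were called lower and 0.289% higher.

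**Figure D2:**
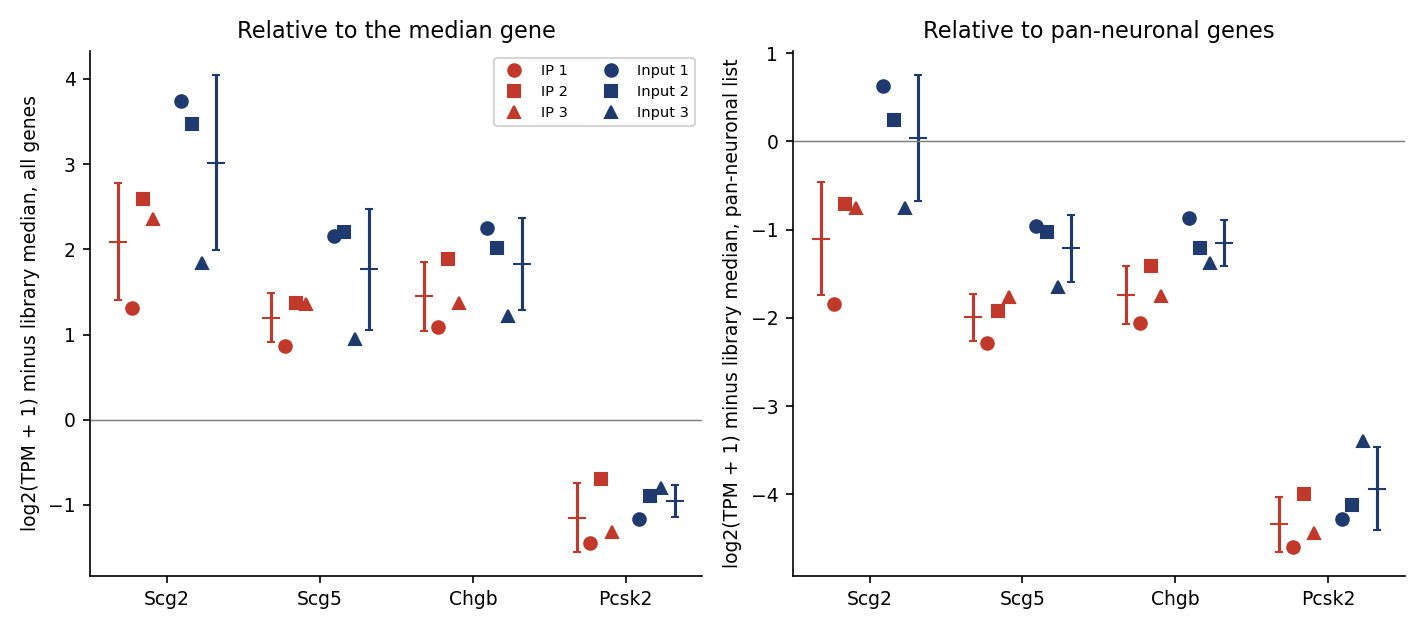
log2(TPM + 1) of the 4 genes minus the library's median over all genes (left) and minus its median over 24 pan-neuronal genes (right), with red for IP, dark blue for Input, symbols for libraries 1, 2 and 3 and bars for mean ± SD (n = 3). On the left, Input 3 overlaps the IP points for every gene, and on the right the groups of Scg5 and Chgb do not overlap.

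Since the tag recovers RNA from a subset of cells, the 4 genes were also set against 24 genes that neurons of all kinds express, such as Snap25, a SNARE protein of vesicle fusion, and Ndrg4. The median difference of this list's genes, relative to the median gene, was 0.09, with single genes from -1.24 to 2.28. Without IP 1 and Input 3, limma called 4 of the 24 higher, Ndrg4 among them, and 2 lower. The shares over all genes were 3.38% and 2.89%, so the list is not a fixed reference. The list's median stood at 3.15, 3.30 and 3.12 above the median gene in IP 1 to 3. In Inputs 1, 2 and 3 it stood at 3.12, 3.23 and 2.60, so this scale raised Input 3 against the other libraries. Relative to the list's median Scg5 stood at -2.29, -1.93 and -1.76 in IP and at -0.96, -1.02 and -1.65 in Input. Chgb stood at -2.06, -1.41 and -1.75 in IP and at -0.87, -1.21 and -1.38 in Input. For both, every IP library lay below every Input library, by a narrow margin in each case (IP 3 of Scg5 and IP 2 of Chgb against Input 3). The exact permutation p was 0.1 for both, the smallest possible, and 14.2% of all genes were likewise lower without overlap on this scale, against 2.22% higher.

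Scg2 relative to pan-neuronal genes stood at -1.84, -0.71 and -0.76 in IP and at 0.63, 0.25 and -0.76 in Input. Its difference was -1.14 (SE 0.49, adjusted p = 0.682 in limma). Pcsk2 stood at -4.34 ± 0.31 in IP against -3.93 ± 0.47 in Input (n = 3 each, SD), a difference of -0.41. The differences of Scg5 and Chgb on this scale were -0.78 and -0.59 (adjusted p = 0.682 and 0.695), and limma called 0% of genes in either direction. At an unadjusted p of 0.05, Scg2 and Scg5 were among the lower genes, which made up 5.45% of all genes, against 1.19% higher.

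Ratios of the 4 genes within a library need no scaling between libraries. The Scg2 to Pcsk2 ratio of TPM was 7.33, 10.02 and 13.3 in IP 1 to 3 and 31.1, 21.2 and 6.52 in Inputs 1, 2 and 3. Inputs 1 and 2 thus held more secretogranin II transcript per PC2 transcript than any IP library, and Input 3 less than any. The log2 difference of this ratio between IP and Input was -0.71, with means of 3.31 ± 0.43 and 4.02 ± 1.17 (SD, n = 3 each). The exact permutation p was 0.4, and 0.6 adjusted over the 6 pairs of genes.

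The chaperone and its enzyme, Scg5 and Pcsk2, had a TPM ratio of 5.35, 4.27 and 6.62 in IP and 10.3, 8.76 and 3.48 in Input. In every library the 7B2 transcript was thus several times as abundant as that of PC2. The Chgb to Pcsk2 ratio was 6.13 to 6.69 in the IP libraries, a narrow range, against 11.0, 7.70 and 4.22 in Inputs 1, 2 and 3. Its mean log2 was 2.67 ± 0.06 in IP against 2.83 ± 0.70 in Input (n = 3 each, SD).

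Among the granins and Scg5, the transcripts were closer to each other in level. Scg5 to Chgb was 0.698 to 0.991 in IP and 0.825 to 1.14 in Input, so Scg5 was below Chgb in every library but Input 2. Whether the levels of these genes differ from each other was not tested. Scg2 to Chgb was 1.17, 1.63 and 1.99 in IP and 2.84, 2.75 and 1.55 in Input. Scg2 to Scg5 was 1.37, 2.34 and 2.01 in IP and 3.02, 2.42 and 1.87 in Input. In none of the 6 pairs did the difference between IP and Input exceed the spread, with log2 differences of -0.71 to -0.16 and adjusted exact permutation p of 0.6 to 0.7.

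**Figure D3:**
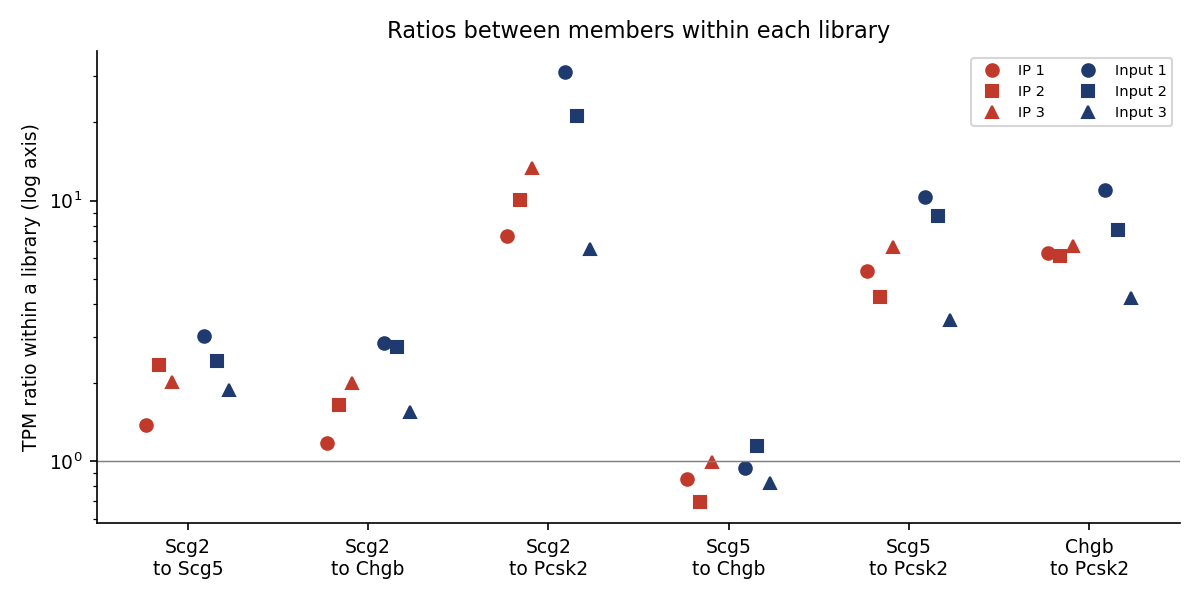
TPM ratio within each library (log axis) for the 6 pairs of the 4 genes, with red for IP, dark blue for Input, and a circle, square or triangle for library 1, 2 or 3. The ratios to Pcsk2 are highest in Inputs 1 and 2 and lowest in Input 3, and the 3 IP libraries lie close together for Chgb to Pcsk2.

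Scg2, Scg5 and Chgb shared their pattern over the libraries more closely with each other than with Pcsk2. Over the 6 libraries, relative to the median gene, Pearson's r was 0.977 for Scg2 with Scg5, 0.955 for Scg2 with Chgb and 0.914 for Scg5 with Chgb. With Pcsk2 it was 0.272, 0.159 and 0.366 for Scg2, Scg5 and Chgb. These are descriptions over 6 libraries that share depth and quality within a library, and the high values rest on Inputs 1 and 2 being high and IP 1 and Input 3 low.

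Of 5274 other named genes, the 3 most like Scg2 by this measure were Lrrc3b, Cd81 and Apod (r = 0.991, 0.990 and 0.984 over 6 libraries). Apod, which encodes apolipoprotein D, had 14.9, 118 and 96.0 TPM in IP against 296, 357 and 32.9 TPM in Input. For Scg5 they were Prkra, Gstm1 and Maged2 (r = 0.994, 0.991 and 0.990), and for Chgb Nceh1, Nelfcd and Rnf214 (r = 0.991, 0.986 and 0.984). For Pcsk2 they were Syp, Rnf146 and Trafd1 (r = 0.968, 0.952 and 0.940). Syp, which encodes the synaptic vesicle protein synaptophysin, had 227, 552 and 411 TPM in IP against 550, 621 and 315 TPM in Input. The libraries in which Pcsk2 was relatively high were thus IP 2, Input 2 and Input 3, and those of the granins were Inputs 1 and 2.

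Other granin family members did not all lie on the same side as Scg2 and Chgb. Of the 7 measured members of the family, 4 were below 0 and 3 above in the difference relative to the median gene, with a median of -0.29 against 0.02 over all genes, and 0 passed in limma. Chga, which encodes chromogranin A, had 211, 449 and 292 TPM in IP against 364, 447 and 127 TPM in Input. Its IP 2 value was close to that of Input 2, and its difference was 0.38 (SE 0.31, adjusted p = 0.75 in limma). Scg3, secretogranin III, which binds chromogranin A at the vesicle membrane, had 15.8, 79.1 and 43.9 TPM in IP against 77.1, 93.0 and 24.3 TPM in Input, a difference of -0.29.

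Vgf, a precursor of several secreted peptides, had 55.6, 69.4 and 57.6 TPM in IP against 92.6, 64.5 and 44.1 TPM in Input. Its groups overlapped, with a difference of 0.16 (SE 0.31). Pcsk1n encodes proSAAS, an inhibitor of the convertase PC1/3, and had 254, 282 and 233 TPM in IP against 393, 455 and 64.1 TPM in Input. Its difference was 0.42 on all libraries and -0.43 without IP 1 and Input 3, so its direction turned on Input 3. Without those libraries 2 of the 7 were called lower, Scg2 and Scg5, against 2.89% of all genes, and the family's median was -0.43 against -0.04 over all genes.

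Of 6 convertase genes searched, Pcsk2 alone had a row, and Pcsk1 and Furin, among others, are not analysed here. Among the enzymes that trim or modify peptides, 4 of 9 were measured, 3 below 0 and 1 above, with a median of -0.14, and 0 passed. Cpe, carboxypeptidase E, had 167, 671 and 538 TPM in IP against 870, 904 and 191 TPM in Input. It was more abundant than Pcsk2 by more than 10 times in every library, and its difference was -0.19 (SE 0.45, adjusted p = 0.89 in limma). Qpct, which forms pyroglutamate at peptide ends, had 8.70, 18.8 and 16.2 TPM in IP against 41.5, 33.7 and 8.11 TPM in Input, a difference of -0.43. Ctsl, a cathepsin that also acts in secretory vesicles, and Rnpep, aminopeptidase B, stood at -0.08 and 0.17.

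Of 15 genes of vesicle membrane and assembly 10 were measured, 8 below 0 and 2 above, with a median of -0.14. Slc18a2, the monoamine transporter of dense-core and synaptic vesicles, had 8.53, 91.1 and 49.4 TPM in IP against 208, 142 and 31.9 TPM in Input (-1.25, SE 0.64). Tgoln1, a trans-Golgi protein, had 13.9, 66.8 and 43.8 TPM in IP against 85.8, 83.8 and 38.0 TPM in Input. Relative to the median gene its IP and Input values did not overlap, with a difference of -0.65 (SE 0.33). Ica1 and Atp6ap2, an accessory subunit of the vesicle proton pump, stood at 0.38 and -0.34. None of the 10 passed in limma, on all libraries or without IP 1 and Input 3.

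Of 23 genes of vesicle transport and release 9 were measured, 3 below 0 and 6 above, with a median of 0.05. Vamp2, the vesicle SNARE, had 107, 340 and 348 TPM in IP against 790, 753 and 515 TPM in Input, so it was lower in every IP library. Its difference was -1.28 (SE 0.34, adjusted p = 0.65 in limma), and without IP 1 and Input 3 it was called lower (-0.88, adjusted p = 0.0281). Syt4, a synaptotagmin of dense-core vesicles, stood at -0.83 (SE 0.37). Rph3a, rabphilin, which binds Rab3 on vesicles, had 36.2, 85.8 and 76.9 TPM in IP against 63.3, 58.2 and 23.1 TPM in Input. Relative to the median gene it was higher in every IP library (0.73, SE 0.23, adjusted p = 0.65). Kif1a, the motor that carries dense-core vesicles along axons, stood at 0.71 (SE 0.60).

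As 1 group, 31 of 60 listed dense-core vesicle genes were measured, with 12 above 0 and 19 below and a median of -0.08 against 0.02 over all genes. IP and Input did not overlap for 1 gene higher in IP (Rph3a) and 4 lower (Atp6ap1, Syt4, Tgoln1 and Vamp2), where 6.93% of all genes were higher and 9.71% lower. Relative to the pan-neuronal median it was 1 higher and 8 lower, where 2.22% of all genes were higher and 14.2% lower. Without IP 1 and Input 3, 0 of the 31 were called higher and 3 lower, Scg2, Scg5 and Vamp2, where 3.38% of all genes were higher and 2.89% lower. Without the 4 genes described here the median of the remaining 27 was -0.08 too. Of these 27, 0 were called higher and 1 lower (Vamp2) without IP 1 and Input 3. The synaptic vesicle list, the other class of vesicle in neurons, had a median of -0.08 over 22 genes. Without IP 1 and Input 3 its median was 0.08, with 15 genes above 0 and 7 below. That of the 31 dense-core vesicle genes was then -0.19, with 11 above and 20 below. Over all genes it was -0.04, with 2558 above and 2980 below. Vamp2 was counted among the dense-core vesicle genes only, and whether the 2 lists differ was not tested. The list of protein entry into the endoplasmic reticulum, through which every granin passes, had a median of -0.27 over 24 genes, 19 of them below 0.

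**Figure D4:**
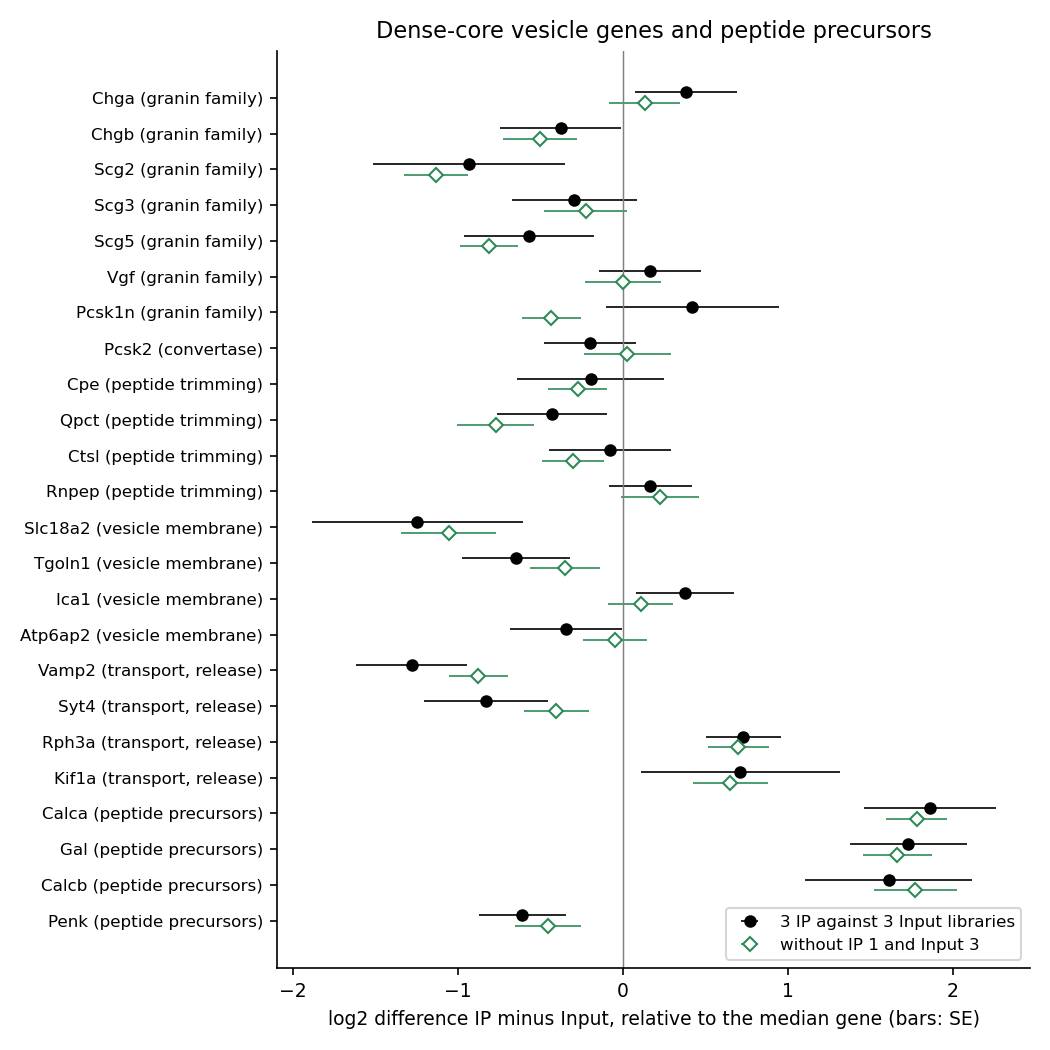
log2 difference of IP from Input relative to the median gene, with SE, for the measured genes of granins and peptide processing and up to 4 genes with the largest difference from 3 other lists, on all 6 libraries (black) and without IP 1 and Input 3 (green diamonds). Calca, Gal and Calcb lie to the right, and Scg2, Slc18a2 and Vamp2 to the left with both sets of libraries.

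The peptide precursors that such vesicles carry did not share 1 direction with Scg2. Calca, which encodes CGRP, had 105, 97.0 and 90.6 TPM in IP against 31.3, 33.9 and 28.2 TPM in Input, a difference of 1.86. Gal (galanin) and Calcb stood at 1.73 and 1.61, and Penk (enkephalin) at -0.61. In limma none of the 9 measured precursors passed on all libraries. Without IP 1 and Input 3, Calca, Calcb and Gal were called higher and Cartpt, Sst and Ucn lower, against 3.38% and 2.89% of all genes. In the same 4 libraries Scg2 and Scg5 were called lower, as above.

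The summed TPM of astrocyte markers was high and low in the same libraries as the granins, and so was that of the synaptic vesicle list. Over its 7 measured genes of 16, the astrocyte list had 1059 to 2759 TPM in IP against 955 to 4846 TPM in Input. It was lowest in Input 3 and IP 1, the libraries with the lowest median gene, and highest in Inputs 1 and 2, the same split as Scg2. Relative to the median gene, 5 of the 7 had a difference below 0 and 2 above, with a median of -0.28. Its defining genes Aqp4, Slc1a3 and Gja1 are not analysed here. The 6 measured oligodendrocyte genes of 15 summed to 365 to 4437 TPM in IP against 536 to 4877 TPM in Input. The microglial list (2 of 12 measured) summed to 21.4 to 38.6 TPM in IP against 33.2 to 85.5 in Input. For the endothelial and mural list (2 of 15) the sums were 93.3 to 453 and 32.1 to 78.4. That is higher in every IP library than in any Input library. Of its 2 genes Ly6c1 did not overlap between groups, while Ly6a did, with 25.95 TPM in IP 3 against 43.1 TPM in Input 2. The 24 pan-neuronal genes, all measured, summed to 10003 to 22114 TPM in IP against 10821 to 20762 TPM in Input, again lowest in IP 1 and Input 3. No gene of the pituitary list was measured. The part of these cells in the values of the 4 genes was not tested.

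**Figure D5:**
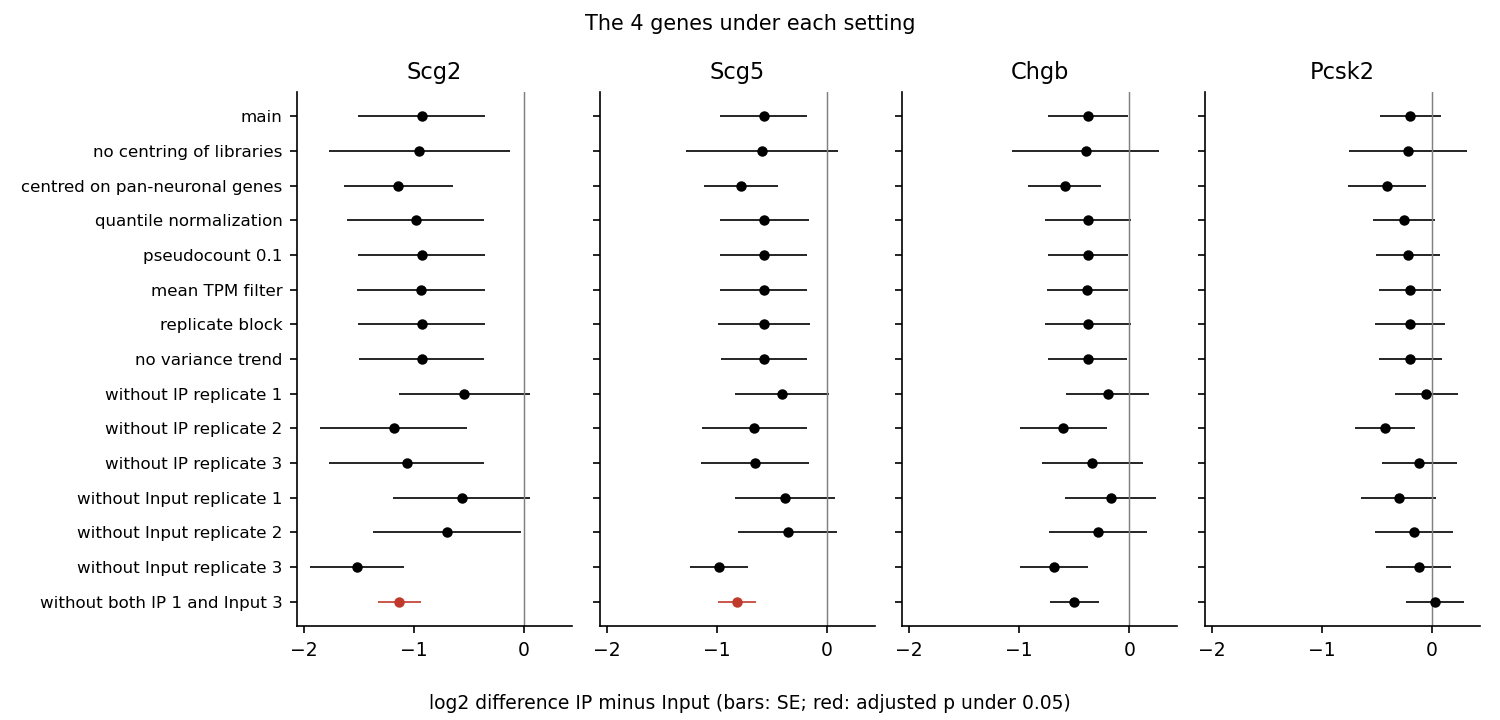
log2 difference of IP from Input with SE for the 4 genes under each setting, with the value without centring given relative to the median gene and with red marking an adjusted p under 0.05. Scg2, Scg5 and Chgb stay below 0 in every setting shown, and Pcsk2 reaches 0.03 without both IP 1 and Input 3.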

How the data were processed

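Per the labels' protocols, tissue of 4 to 5 mice was pooled for each repeat, tagged ribosomes were recovered with eGFP antibodies, and a Nextera kit was used for the libraries. Per the submitters' processing notes, RSEM, DESeq and the build mm10 were used, without versions or roles, and no aligner is named. The deposited values are TPM, per the file headers. All 6 columns of values were used. TPM keep no depth, so no counting interval can be given.

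log2(TPM + 1) was computed, the median over all genes was subtracted in each library, and IP was compared with Input by limma 3.58.1 in R 4.3.3 (eBayes with trend, group only, no filter, Benjamini-Hochberg over 5538 genes, threshold 0.05), after tests on simulated data. The planned count test was not used, since the values are TPM. Fold changes on this scale understate those of low genes. Exact permutation tests used scipy 1.17.1. Replicates are pools, and p-values measure the spread between them.

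The 4 genes and all lists were chosen with earlier results of these data known. Named genes were the measured granins, convertases and trimming enzymes, up to 4 genes with the largest difference from each other list, and the 3 genes most like each of the 4; those of predicted models and pseudogenes were left out. The non-overlap count relative to pan-neuronal genes and the genes of tag and tissue were added after the values were seen. Alternatives were no centring, centring on pan-neuronal genes, quantile normalization, a pseudocount of 0.1, a minimum mean of 20 TPM, no variance trend, the replicate block, and leaving out libraries.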

Additional observations from a re-analysis of the deposited data

How the results depend on the processing

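Scg2, Scg5 and Chgb kept a difference below 0 in all 14 alternatives run. Leaving out single libraries gave -1.52 to -0.54 for Scg2, -0.98 to -0.35 for Scg5, -0.68 to -0.17 for Chgb and -0.42 to -0.05 for Pcsk2, and none passed in limma. Without both IP 1 and Input 3, Scg2 (-1.13) and Scg5 (-0.81) passed, Pcsk2 turned to 0.028, and 187 genes were called higher and 160 lower. Leaving out 1 library gave 0 to 16 genes higher and 0 to 1 lower; the 16 and the 1 came without Input 3. Without centring, the median gene itself differed by -0.23.

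The Chgb to Pcsk2 ratio turned to 0.16 without Input 1; single libraries left out moved it from -0.53 to 0.16. Directions of 6 other named genes turned when a library was left out. With single libraries left out, Scg3 ranged from -0.62 to 0.0081, Vgf from -0.086 to 0.32, Pcsk1n from -0.13 to 0.73, Cpe from -0.58 to 0.11, Ctsl from -0.46 to 0.11 and Syn2 from -0.17 to 1.48. Pcsk1n was at -0.43 without both IP 1 and Input 3, and Vgf and Rnpep were at -0.046 and -0.043 against pan-neuronal genes. The cause was not tested.

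The labels number IP and Input 1 to 3, but do not say that a number marks a shared pool. The numbers were therefore not taken as pairs. Deviations from the group means of same-numbered libraries correlated at -0.10, 0.25 and -0.17, and IP 1 correlated best with Input 3. With so few libraries per group, these values cannot show whether a number marks a shared pool. With the replicate number as a block Scg2 stood at -0.93 (SE 0.57, limma adjusted p = 0.788), and 0 genes were called.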
